A study of Mus musculus with 6 samples.

Results

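The genes of cholesterol synthesis, uptake and efflux were followed in C3H10T1/2 cells after knockdown of both Polycomb ubiquitin ligases. The set was a list of 27 gene symbols, chosen by name, of which 26 had a row among the 20325 genes of the deposited table; Hmgcs1 was not analysed here. Of the 26, 17 encode enzymes of synthesis, 4 control the pathway, 3 carry cholesterol inside the cell and 2 export it.

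The RNA-seq libraries formed a knockdown and a control group. In the knockdown group, 3 libraries came from parental C3H10T1/2 cells given small interfering RNAs (siRNAs) against Ring1a and Ring1b. In the control group, 3 libraries came from parental cells given a scrambled siRNA. Both groups were grown with fetal bovine serum, a source of lipoprotein cholesterol, at passage 10 to 15. C3H10T1/2 is a line of multipotent mesenchymal cells derived from C3H mouse embryos, so both groups model 1 cultured line and not a tissue. The comparison asked how the transcriptome changes when Ring1a and Ring1b, the catalytic subunits of Polycomb repressive complex 1, are depleted. Nothing in the labels says that replicates came from separate cultures. The p-values therefore reflect the spread among these 6 libraries alone, and that spread may be technical.

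Cells obtain cholesterol by making it from acetyl-CoA through mevalonate, squalene and lanosterol, or by taking it up in lipoproteins. When the sterol content of the endoplasmic reticulum is low, the escort protein Scap carries the precursor of the transcription factor SREBP2 (gene Srebf2) to the Golgi, where it is cleaved and then switches on nearly all synthesis enzymes together. When sterol is plentiful, Insig proteins hold Scap back, and oxysterols activate the nuclear receptor LXR, which switches on the exporters Abca1 and Abcg1. Cholesterol taken up in lipoproteins leaves the lysosome through Npc2 and Npc1.

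Values are the deposited ones, which the authors' table calls median normalized; they have no unit and are comparable between libraries only as far as that scaling makes them so. Deposited totals were close to 13100000, 19500000 and 13200000 in knockdown replicates 1, 2 and 3, and to 13400000, 13600000 and 13700000 in control replicates 1, 2 and 3. The lowest values of each library are mostly multiples of 1 step, which puts the depth near 23200000, 4600000 and 18500000 reads in the knockdowns and near 51800000, 5400000 and 15100000 in the controls. Knockdown replicate 2 stood apart: its log2 values correlated with the other libraries, across genes, at 0.821 to 0.867, against 0.944 to 0.993 among the other 5. Cytoplasmic ribosomal protein genes (83 by symbol) made up 20.6% of it and 5.07 to 5.81% of the others. Tests of members are therefore also given without it. Rnf2, which encodes Ring1b, stood at 129, 76.5 and 152 in the knockdowns and 815, 829 and 799 in the controls (log2 fold change −2.82, SE 0.28, limma adjusted p = 0.00946; without knockdown replicate 2 log2 fold change −2.53, SE 0.084, limma adjusted p = 1.98e-09). Ring1, which encodes Ring1a, stood at 162, 268 and 186 in the knockdowns and 336, 386 and 374 in the controls (log2 fold change −0.86, SE 0.23, limma adjusted p = 0.104), did not pass with all libraries and passed without knockdown replicate 2 (log2 fold change −1.06, SE 0.10, limma adjusted p = 3.86e-06). All 10 mesenchymal markers were present (summed values 304572 to 460783 in the knockdowns and 411048 to 434543 in the controls). The summed values of 6 adipocyte markers were 50.5 to 166 in the knockdowns and 35.1 to 44.5 in the controls, with Plin1, Cfd and Lep at 0 in every library. Most of that sum was Fabp4, at 50.3, 162 and 49.0 in the knockdowns and 33.1, 30.1 and 27.1 in the controls, while Adipoq stood at 1.13, 0 and 1.42 in the knockdowns and 11.1, 5.01 and 9.03 in the controls, with the groups in the other order. In the knockdowns, 6 leukocyte and macrophage markers summed to 14.2 to 25.5, 4 epithelial markers to 17.1 to 38.3, 4 endothelial markers to 106 to 156 and 3 hepatocyte markers to 0 to 1.42. In the controls the same sums were 10.8 to 16.3, 15.0 to 31.6, 87.7 to 107 and 0. The endothelial sum was nearly all Tek, at 148, 102 and 134 in the knockdowns and 106, 87.7 and 90.3 in the controls. Pecam1, Cdh5 and Kdr were at 6.22 or less in every library. Emr1, Cd3e, Alb and Ttr were at 0 in every library. In bulk RNA, fewer cells of a type and less RNA per cell cannot be told apart, and the part of these markers in the results was not tested.

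With all 6 libraries, none of the cholesterol genes passed the test. The test covered the 25 members whose mean reached 10, and 0 of them rose or fell (limma across all genes, Benjamini-Hochberg adjusted p under 0.05; Abca1, Npc1 and Scap had an unadjusted p under 0.05), where 3.2% of all 12085 genes tested rose and 1.78% fell. The lowest adjusted p belonged to the exporter gene Abca1 (limma adjusted p = 0.0938), followed by Npc1 (0.107) and Scap (0.134). The median log2 fold change of the 25 was 0.076, against 0.0057 over all genes tested; with libraries scaled to equal totals these medians were −0.067 and −0.14. In 5 members (20%) all 3 knockdowns lay above all 3 controls, and in 3 (12%) they lay below, against 20.5% and 23.7% of all genes tested. None of the members was among the 323 genes of the authors' deposited table of changed genes, which starts at a ratio of 4.01 for higher genes and reaches down from 0.242 for lower ones.

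Leaving out knockdown replicate 2, the fit called 7 of the 25 higher (28%) and 6 lower (24%), with 2 knockdown libraries against 3 controls. These shares are near the background, since the same fit called 23.8% of 11995 genes higher and 26.1% lower. The 7 higher members were all synthesis enzymes: Pmvk, Idi1, Fdps, Lss, Tm7sf2, Sc4mol and Dhcr7. Their means in knockdown replicates 1 and 3 were 1.19 to 1.41 times the control mean. The 6 lower members were the exporter gene Abca1, the lysosomal transporter gene Npc1, the SREBP escort gene Scap and the enzyme genes Acat2, Mvd and Ebp, at 0.386 to 0.867 times the control mean. The other 12 members had log2 fold changes between −0.15 and 0.13 in that fit and did not pass.

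**Figure D1:**
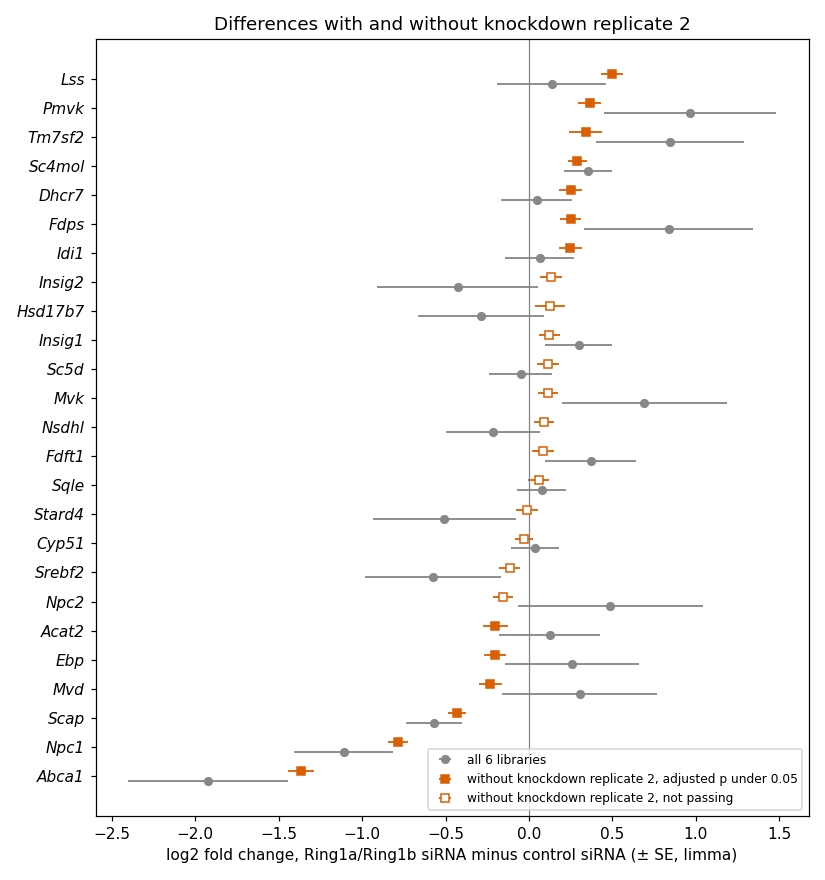
Log2 fold change (knockdown minus control, x axis) with its standard error for the 25 tested members, for all 6 libraries (grey circles) and without knockdown replicate 2 (orange squares, filled where the adjusted p was under 0.05). Abca1 and Npc1 lie lowest in both fits, and the standard errors are wider with all 6 libraries.

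The genes of cholesterol export and lysosomal release held the largest differences. Abca1 encodes the membrane pump that hands cholesterol to apolipoprotein A-I. It stood at 285, 89.3 and 286 in knockdown replicates 1, 2 and 3, against 785, 759 and 676 in the controls. All 3 knockdowns lay below all 3 controls, with replicates 1 and 3 close to each other and replicate 2 lowest. The mean was 220.2 ± 113 in the knockdowns and 740.1 ± 57.3 in the controls (SD, n = 3 each), 3.36-fold lower. The difference missed the threshold with all libraries (log2 fold change −1.92, SE 0.48, limma adjusted p = 0.0938) and passed it without knockdown replicate 2, at 2.59-fold lower (log2 fold change −1.37, SE 0.078, limma adjusted p = 8.27e-08). Among all genes tested, 0.943% had a log2 fold change at least as low with all libraries and 1.58% without knockdown replicate 2. The value of Abca1 in knockdown replicate 2 corresponds to about 21 reads. Abcg1, which encodes a second exporter, was listed at 1.13, 0 and 2.13 in the knockdowns and 1.55, 0 and 0.903 in the controls, at or under the value of 3 reads in all libraries but control replicate 1, and was not tested.

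Npc1 encodes the lysosomal membrane protein mutated in Niemann-Pick disease type C, which moves cholesterol out of the lysosome. Its values were 687, 369 and 760.1 in the knockdowns and 1239, 1266 and 1238 in the controls. The groups did not overlap, and the 3 controls differed little among themselves. The mean was 605 ± 208 in the knockdowns and 1248 ± 15.7 in the controls (SD, n = 3 each), 2.06-fold lower (log2 fold change −1.11, SE 0.30, limma adjusted p = 0.107). Without knockdown replicate 2 it was 1.72-fold lower and passed (log2 fold change −0.79, SE 0.06, limma adjusted p = 8.31e-07). Its exons share 192 nt with Rmc1 on the opposite strand in GENCODE M21; Rmc1 stood at 413, 286 and 402 in the knockdowns and 429, 422 and 411 in the controls.

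Npc2 encodes the soluble partner that hands cholesterol to Npc1, and its values set it apart from Npc1. It stood at 9466, 34096 and 8479 in the knockdowns and 10166, 9723 and 10022 in the controls, so that replicate 2 alone was high and the other knockdowns lay below the controls. It did not pass with all libraries (log2 fold change 0.49, SE 0.55, limma adjusted p = 0.588) or without replicate 2 (log2 fold change −0.15, SE 0.06, limma adjusted p = 0.0519), and the sign differed between the fits. Stard4 encodes a cytosolic sterol carrier. It stood at 1068, 404 and 1194 in the knockdowns and 1086, 1200.2 and 1135 in the controls, low in replicate 2 alone, with replicates 1 and 3 on both sides of the control mean (log2 fold change −0.51, SE 0.43, limma adjusted p = 0.496; without replicate 2 log2 fold change −0.013, SE 0.066, limma adjusted p = 0.884).

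Of the 4 genes that control the pathway, Scap had lower values in all 3 knockdowns than in any control. It stood at 1158, 872 and 1174 in the knockdowns and 1569.8, 1614 and 1530.1 in the controls, without overlap. The mean was 1068 ± 170.2 in the knockdowns and 1571 ± 41.8 in the controls (SD, n = 3 each), 1.47-fold lower (log2 fold change −0.57, SE 0.17, limma adjusted p = 0.134). Without knockdown replicate 2 it was 1.35-fold lower and passed (log2 fold change −0.43, SE 0.052, limma adjusted p = 3.4e-05). A log2 fold change at least as low was found in 16.8% of all genes tested with all libraries and in 13.1% without that library. Scap exons share 785 nt with 5830462I19Rik on the opposite strand in GENCODE M21, and the sources do not say whether reads were assigned by strand.

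Srebf2, which encodes the SREBP2 precursor itself, stood at 6432, 2577 and 6948 in the knockdowns and 6787, 7505 and 7463 in the controls. Replicate 2 was low, replicate 1 lay just below the controls and replicate 3 among them (log2 fold change −0.57, SE 0.41, limma adjusted p = 0.445; without replicate 2 log2 fold change −0.12, SE 0.062, limma adjusted p = 0.144). Insig1 and Insig2, which encode the retention proteins, lay on opposite sides of the controls in replicate 2. Insig1, itself a target of SREBP2, stood at 3615, 5441 and 3942 in the knockdowns and 3218, 3598 and 3603 in the controls. All 3 knockdowns lay above the controls, the lowest of them by a narrow margin, and the difference did not pass (log2 fold change 0.30, SE 0.20, limma adjusted p = 0.427; without replicate 2 log2 fold change 0.12, SE 0.064, limma adjusted p = 0.135). Insig2 stood at 731, 221 and 691 in the knockdowns and 678, 628 and 639 in the controls, with replicate 2 below them and replicates 1 and 3 above (log2 fold change −0.43, SE 0.48, limma adjusted p = 0.585; without replicate 2 log2 fold change 0.13, SE 0.065, limma adjusted p = 0.114).

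**Figure D2:**
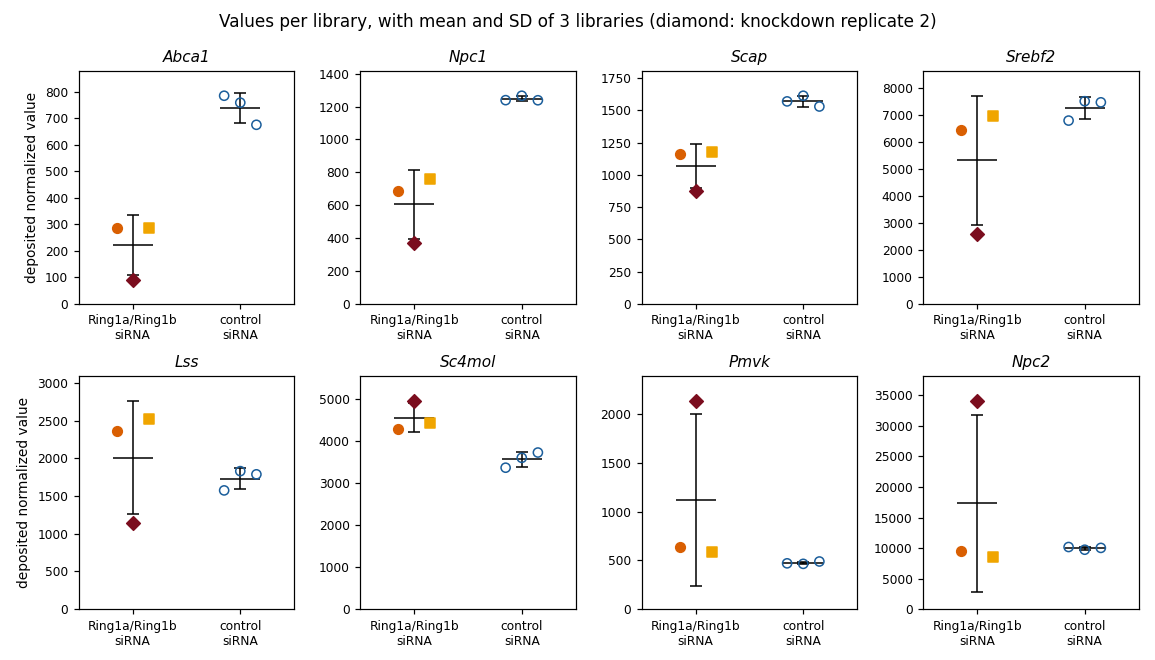
Deposited normalized values (y axis) of 8 members in each library, knockdown left (circle, diamond and square for replicates 1, 2 and 3) and control right (open circles), with the mean and SD of 3 libraries. Abca1, Npc1 and Scap are lower in all 3 knockdowns, and Sc4mol and Pmvk higher in all 3. Replicate 2 lies far from the other knockdowns in Srebf2, Lss, Npc2, Pmvk and Abca1, and nearly as far in Npc1 as in Lss.

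The 6 measured enzymes from acetyl-CoA to farnesyl diphosphate split without knockdown replicate 2: Pmvk, Fdps and Idi1 passed as higher, Mvd and Acat2 as lower, and Mvk did not pass. The 17 synthesis enzymes summed to 0.288, 0.297 and 0.297% of all values in the knockdowns and 0.242, 0.268 and 0.266% in the controls. The 3 knockdowns lay above the controls, and no test was made of this sum. In replicate 2 Fdps alone made up 14323 of the summed 57806, against 4197 of 37837 in replicate 1 and 4227 of 39116 in replicate 3. Without Fdps, replicate 2 would not lie above all controls. Pmvk encodes phosphomevalonate kinase. It stood at 632, 2134 and 589 in the knockdowns and 469, 464 and 488 in the controls, above them in all 3 libraries and several times higher in replicate 2 (log2 fold change 0.97, SE 0.51, limma adjusted p = 0.345; without replicate 2 log2 fold change 0.37, SE 0.069, limma adjusted p = 0.000894). Fdps encodes farnesyl diphosphate synthase, at the branch to prenylated proteins. Its values were 4197, 14323 and 4227 in the knockdowns and 3238, 3639 and 3772 in the controls, again without overlap and highest in replicate 2 (log2 fold change 0.84, SE 0.51, limma adjusted p = 0.392; without replicate 2 log2 fold change 0.25, SE 0.065, limma adjusted p = 0.00716).

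Idi1, encoding the isomerase of the isoprene units, stood at 3346, 2363 and 3601 in the knockdowns and 2661, 3140.1 and 2981 in the controls. Replicates 1 and 3 lay above the controls and replicate 2 below them (log2 fold change 0.064, SE 0.21, limma adjusted p = 0.849; without replicate 2 log2 fold change 0.25, SE 0.07, limma adjusted p = 0.0114). Mvd, encoding mevalonate diphosphate decarboxylase, had the reverse pattern, with 721, 2282 and 773 in the knockdowns and 816, 922 and 899 in the controls (log2 fold change 0.30, SE 0.46, limma adjusted p = 0.685; without replicate 2 log2 fold change −0.23, SE 0.069, limma adjusted p = 0.0144). Acat2, encoding the cytosolic thiolase that starts the pathway, stood at 2249.6, 4473 and 2289.5 in the knockdowns and 2330.1, 2842 and 2689 in the controls, and its adjusted p without replicate 2 lay close to the threshold (log2 fold change −0.20, SE 0.075, limma adjusted p = 0.0432; with all libraries log2 fold change 0.12, SE 0.30, limma adjusted p = 0.801). Its replicates 1 and 3 lay just below the lowest control. Mvk, encoding mevalonate kinase, was high in replicate 2 alone, at 1326, 4277 and 1249.7 in the knockdowns and 1152, 1250.4 and 1169 in the controls, and did not pass in either fit (log2 fold change 0.69, SE 0.49, limma adjusted p = 0.449; without replicate 2 log2 fold change 0.11, SE 0.059, limma adjusted p = 0.13).

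Among the 11 enzymes from squalene to cholesterol, 4 passed as higher and 1 as lower without knockdown replicate 2. Lss, encoding lanosterol synthase, which closes the sterol ring, had the largest of these differences. It stood at 2369, 1148 and 2518 in the knockdowns and 1576, 1832 and 1789 in the controls, so replicates 1 and 3 were above all controls and replicate 2 below all of them. With all libraries the difference was small beside its error (log2 fold change 0.14, SE 0.33, limma adjusted p = 0.799); without replicate 2 the ratio of means was 1.41 (log2 fold change 0.50, SE 0.068, limma adjusted p = 8.74e-05). Sc4mol, now named Msmo1, encodes the sterol C4 methyl oxidase. Its values were 4282, 4944 and 4417 in the knockdowns and 3359, 3593 and 3719 in the controls, and among the genes whose 3 knockdowns lay above the controls it was the one that replicate 2 moved least (log2 fold change 0.35, SE 0.14, limma adjusted p = 0.246; without replicate 2 log2 fold change 0.29, SE 0.056, limma adjusted p = 0.00112).

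Tm7sf2, encoding a sterol C14 reductase, stood at 593, 1611 and 539.7 in the knockdowns and 389.5, 461 and 495 in the controls, without overlap (log2 fold change 0.84, SE 0.44, limma adjusted p = 0.341; without replicate 2 log2 fold change 0.34, SE 0.10, limma adjusted p = 0.0136). Dhcr7, encoding the last reductase of the pathway, stood at 1006, 676 and 1058 in the knockdowns and 801, 899.6 and 905 in the controls, with replicates 1 and 3 above them and replicate 2 below (log2 fold change 0.047, SE 0.21, limma adjusted p = 0.894; without replicate 2 log2 fold change 0.25, SE 0.067, limma adjusted p = 0.00866). Ebp, encoding the sterol isomerase, had 542, 1407 and 534 in the knockdowns and 605, 604 and 652 in the controls. Its replicates 1 and 3 were below the controls and replicate 2 above them (log2 fold change 0.26, SE 0.40, limma adjusted p = 0.692; without replicate 2 log2 fold change −0.20, SE 0.067, limma adjusted p = 0.0235).

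Neither fit called any of the remaining 6 enzymes of this stretch. Sqle encodes squalene epoxidase, a rate-limiting step. It stood at 4696, 4966 and 4871 in the knockdowns and 4211, 4763 and 4832 in the controls, and Cyp51, encoding lanosterol demethylase, at 3917, 4539 and 4051 in the knockdowns and 3884, 4149 and 4156 in the controls. Their log2 fold changes were 0.076 and 0.035 with all libraries and 0.058 and −0.028 without replicate 2. In both genes the groups overlapped, and replicate 2 lay within 0.19 log2 units of the other knockdowns. Fdft1 (squalene synthase), Nsdhl and Hsd17b7 (the C4 demethylation complex) and Sc5d (the C5 desaturase) had log2 fold changes of 0.37, −0.22, −0.29 and −0.05 with all libraries and of 0.085, 0.091, 0.13 and 0.11 without replicate 2. Some values of the synthesis enzymes may hold reads of other genes. Lss exons share 381 nt with 4930483K19Rik, Idi1 exons 323 nt with Gm48574 and Cyp51 exons 166 nt with Akap9, all on the opposite strand. Fdft1 exons share 774 nt with the abundant protease gene Ctsb on the opposite strand, and Ctsb stood at 9195, 15886 and 8665 in the knockdowns and 9792, 9927 and 10205 in the controls. Near copies of at least 95% identity over 200 nt or more were found for Acat2 (Acat3), Fdft1 (1 pseudogene), Idi1 (2 pseudogenes) and Fdps (4 pseudogenes, and Gm43738, which overlaps it on the same strand), so these values are less certain. Acat3 itself stood at 14.7, 23.0 and 11.7 in the knockdowns and 19.7, 35.0 and 26.1 in the controls.

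**Figure D3:**
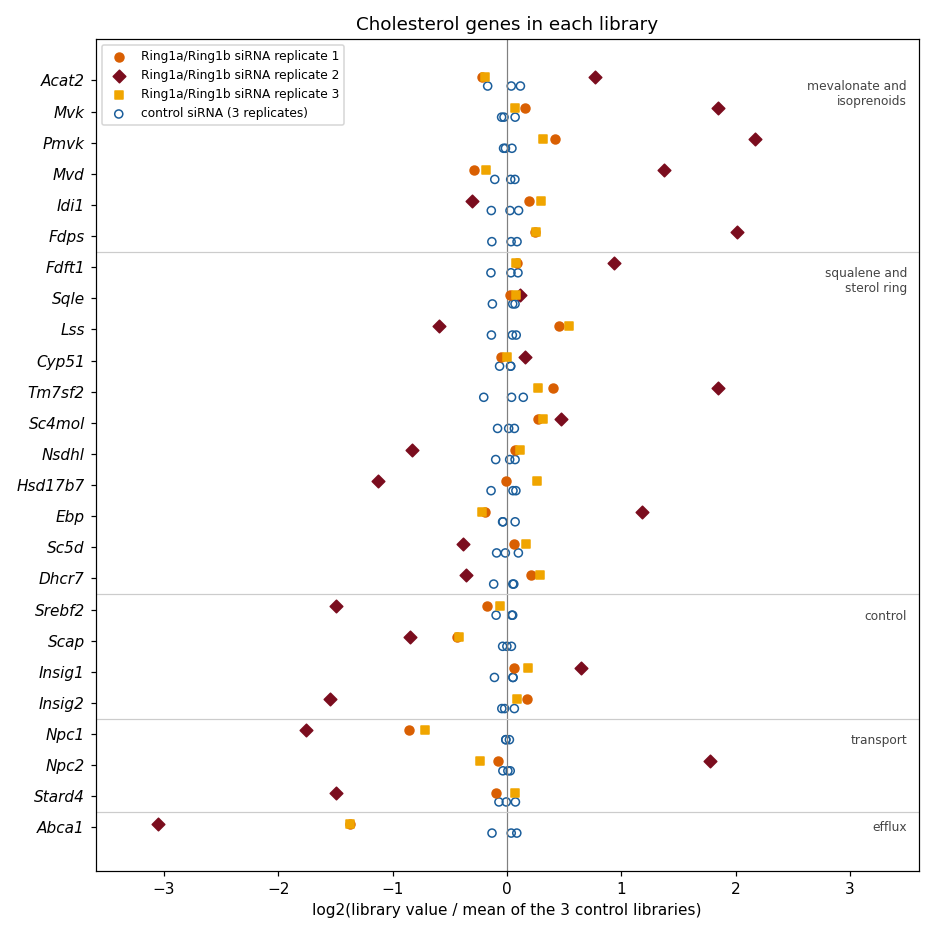
Log2 ratio of each library to the mean of the 3 controls (x axis) for 25 members grouped by role, with the 3 knockdown libraries as filled symbols above the 3 controls as open circles. Knockdown replicates 1 and 3 lie close together in every gene, and replicate 2 (diamonds) lies away from them on the high side in genes such as Fdps and Npc2 and on the low side in Abca1 and Srebf2.

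Promoter sequence was compared because the synthesis genes are known to be switched on together, while Abca1 and Scap lay lower. RefSeq windows of 250 bases before to 50 after each start (GRCm38.p6) were on hand for 20 of the members, in 26 windows. The NF-Y box CCAAT, bound by a factor that acts beside SREBP2, was present on either strand in 17 of 26 windows (65.4%), against 37.4% of all 32851 windows. The Sp1 box GGGCGG was present in 22 of 26 windows (84.6%), against 35.7% of all windows. Neither the sterol regulatory element, searched as TCACNCCAC, nor the LXR element, searched as a strict DR4 repeat, matched a window of a member. They matched 1.24% and 0.231% of all windows. Both DR4 half-sites had to read RGKTYA, where R is A or G, K is G or T and Y is C or T. No match says only that these exact patterns are not in these windows, and sites that depart from them were not counted. The Abca1 window holds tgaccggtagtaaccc, a DR4-like repeat that departs from the searched pattern in its first half-site alone.

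Counting each gene once, 17 of the 20 members had a CCAAT box in some window. Those without were Abca1, Acat2 and Scap, which all passed as lower once knockdown replicate 2 was left out. Of the members higher in that fit, 6 of 6 with a window had the box, as did 2 of 5 lower members and 9 of 9 that did not pass. The 2 lower members with the box were Mvd and Ebp, whose windows are not printed here. Over all genes of that fit with a window, counted the same way, the box was present in 44.4% of 2042 higher genes, 44.1% of 2271 lower genes and 43.2% of 4264 that did not pass, so its share hardly differed with the call. A match is a description of the letters and not a binding site. The windows of Lss, Sc4mol and Tm7sf2 show the box in genes that were higher in that fit, and those of Abca1 and Scap show windows without it. They lie at chr10:76531355-76531654 (plus strand), chr8:64733529-64733828 (minus strand), chr19:6067801-6068100 (minus strand), chr4:53159846-53160145 (minus strand) and chr9:110333038-110333337 (plus strand), are printed 5′ to 3′ in the direction of the gene, and have CCAAT or its reverse complement in capitals.
Lss: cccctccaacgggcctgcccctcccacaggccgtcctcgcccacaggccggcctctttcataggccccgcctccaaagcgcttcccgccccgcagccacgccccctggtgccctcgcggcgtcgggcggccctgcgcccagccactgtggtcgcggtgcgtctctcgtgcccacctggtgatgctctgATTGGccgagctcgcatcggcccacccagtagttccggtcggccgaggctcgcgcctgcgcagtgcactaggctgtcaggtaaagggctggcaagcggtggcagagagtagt
Sc4mol: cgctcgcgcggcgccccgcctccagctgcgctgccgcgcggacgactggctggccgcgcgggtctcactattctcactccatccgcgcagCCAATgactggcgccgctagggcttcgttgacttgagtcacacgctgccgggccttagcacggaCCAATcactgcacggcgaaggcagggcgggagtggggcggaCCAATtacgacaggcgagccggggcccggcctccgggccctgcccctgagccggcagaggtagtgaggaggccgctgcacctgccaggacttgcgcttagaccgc
Tm7sf2: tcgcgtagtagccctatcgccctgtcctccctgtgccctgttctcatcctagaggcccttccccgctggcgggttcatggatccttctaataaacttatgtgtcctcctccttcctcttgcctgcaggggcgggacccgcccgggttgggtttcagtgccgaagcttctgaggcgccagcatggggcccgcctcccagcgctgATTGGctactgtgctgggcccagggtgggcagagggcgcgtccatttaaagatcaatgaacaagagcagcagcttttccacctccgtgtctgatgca
Abca1: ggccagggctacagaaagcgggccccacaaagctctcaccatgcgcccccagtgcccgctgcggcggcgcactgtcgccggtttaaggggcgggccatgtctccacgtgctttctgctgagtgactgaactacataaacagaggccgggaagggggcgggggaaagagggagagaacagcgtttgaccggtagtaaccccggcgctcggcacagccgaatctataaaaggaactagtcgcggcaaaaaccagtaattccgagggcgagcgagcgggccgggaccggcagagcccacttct
Scap: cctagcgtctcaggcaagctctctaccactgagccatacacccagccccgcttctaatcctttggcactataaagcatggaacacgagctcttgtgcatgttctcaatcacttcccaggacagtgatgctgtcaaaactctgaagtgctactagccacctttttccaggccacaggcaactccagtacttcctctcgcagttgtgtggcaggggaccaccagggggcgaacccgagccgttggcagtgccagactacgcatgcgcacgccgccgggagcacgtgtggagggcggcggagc

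The position of knockdown replicate 2 relative to the other knockdowns followed transcript length. Across the 25 members, the Spearman correlation between its log2 difference from replicates 1 and 3 and transcript length was −0.72. Across 11951 tested genes it was −0.61, and all these points share the same 3 libraries. The 6 members with transcripts under 2000 nt (Mvk, Pmvk, Mvd, Fdps, Tm7sf2 and Ebp) were 1.39 to 1.80 log2 units higher in replicate 2. The 8 members over 4000 nt (Lss, Hsd17b7, Sc5d, Srebf2, Scap, Npc1, Stard4 and Abca1) differed from them by −0.42 to −1.67 log2 units in it. Between these lengths the difference ranged from −1.68 in Insig2 to 1.93 in Npc2. Each length is that of the longest principal transcript, or of the longest protein-coding one where none was marked principal. That transcript need not be the form expressed in these cells. Abca1 has the longest transcript of the tested members, at 10262 nt, and Npc1 follows at 5224 nt. With a correction of each library for transcript length, 3 members passed as lower (Abca1, Npc1 and Scap) and 0 as higher, against 4.36% and 6.78% of all 11951 genes tested in that fit. The difference between replicates 1 and 3 and the controls had a Spearman correlation with length of −0.40 over the members and −0.065 over all tested genes. The part of transcript length in the members' differences was not tested beyond these values.

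**Figure D4:**
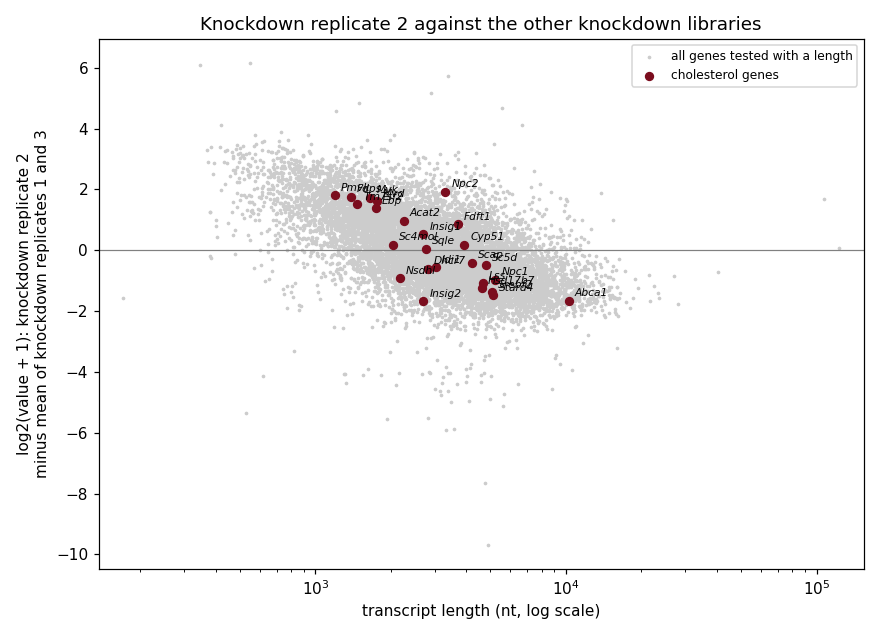
Log2 difference of knockdown replicate 2 from the mean of replicates 1 and 3 (y axis) against transcript length on a log scale (x axis), for all tested genes (grey) and the 25 members (dark red). Short members such as Pmvk and Fdps lie near 1.8 and the longest, Abca1, at −1.67, with Npc2 at 1.93 and Insig2 at −1.68 at similar lengths between them.

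Per kilobase of transcript, members spanned a wide range of levels, which depend on the transcript chosen for the length. The highest were Npc2, at 5258 ± 4399 in the knockdowns and 3022 ± 68.5 in the controls, and Fdps, at 5486 ± 4224 in the knockdowns and 2568 ± 201 in the controls (normalized value per kb, SD, n = 3). Both knockdown means were carried by replicate 2; without it they were 2719.8 for Npc2 and 3048 for Fdps. In the controls Sc4mol (1740.3 ± 89.5) and Sqle (1669 ± 123) followed and did not differ beyond their spread. The regulators Srebf2 and Insig1 averaged 1048 ± 470.5 and 1606 ± 361 in the knockdowns, and 1428 ± 79.4 and 1288 ± 81.9 in the controls; without knockdown replicate 2 the knockdown means were 1318 and 1401. Npc1 was among the lowest on this scale. It averaged 116 ± 39.9 in the knockdowns and 239 ± 3.01 in the controls. In the controls its neighbours in the order were Insig2 (240.4 ± 9.68) and Sc5d (232 ± 15.5), and it differed from neither beyond their spread. Abca1 was the lowest of the tested members, at a mean of 21.5 in the knockdowns (27.8 without replicate 2) and 72.1 in the controls.

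**Figure D5:**
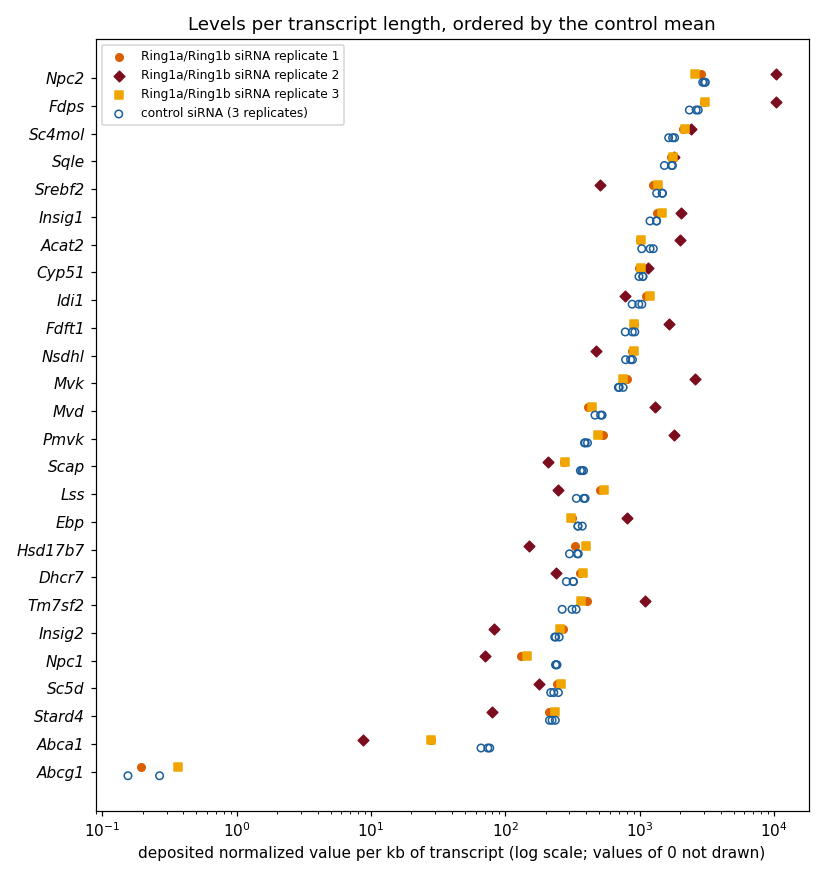
Normalized value per kb of transcript (x axis, log scale) of 26 members in each library, ordered by the control mean from Npc2 at the top to Abcg1 at the bottom. Control means lie between 224 (Stard4) and 3022 (Npc2) for the tested members other than Abca1, which averages 72.1, and Abcg1 averages 0.14.

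Other genes of sterol handling were counted from a list of 33. Of 31 tested, 1 rose and 0 fell (limma adjusted p under 0.05), with a median log2 fold change of −0.21, which was 0.00018 without knockdown replicate 2. The gene that rose was Ch25h, encoding the hydroxylase that makes 25-hydroxycholesterol, an oxysterol that binds Insig proteins. It stood at 133, 106 and 152 in the knockdowns and 41.9, 32.6 and 54.2 in the controls (log2 fold change 1.60, SE 0.26, limma adjusted p = 0.0313; without replicate 2 log2 fold change 1.73, SE 0.21, limma adjusted p = 3.03e-05), and all 3 knockdowns were above all 3 controls. With any one of the other 5 libraries left out it no longer passed (limma adjusted p = 0.11 to 0.153). Without knockdown replicate 2, 7 of the 31 passed as higher and 12 as lower, beside 23.8% and 26.1% of all genes. Nr1h2, encoding the receptor LXR beta, was among the lower genes and was picked out once its values were known. It stood at 849, 757 and 789 in the knockdowns and 924, 969.8 and 1007 in the controls (log2 fold change −0.28, SE 0.13, limma adjusted p = 0.31; without replicate 2 log2 fold change −0.24, SE 0.063, limma adjusted p = 0.00766).

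Fatty acid genes driven by SREBP were counted for contrast, from a list of 12. Of 11 tested, 0 rose and 1 fell, with a median log2 fold change of −0.51, and in 8 of them all 3 knockdowns lay below all 3 controls, against 23.7% of all genes. The gene that fell was Acaca, encoding acetyl-CoA carboxylase, with 2229, 1739 and 2527 in the knockdowns and 4029, 4295 and 3994 in the controls (log2 fold change −0.94, SE 0.18, limma adjusted p = 0.0463; without replicate 2 log2 fold change −0.79, SE 0.063, limma adjusted p = 1.06e-06). With any one of the other 5 libraries left out it no longer passed (limma adjusted p = 0.0856 to 0.222). Without knockdown replicate 2, 1 of the 11 passed as higher and 7 as lower, beside 23.8% and 26.1% of all genes. The median log2 fold change was then −0.32, while the 17 cholesterol synthesis enzymes had a median of 0.11 in the same fit. No test of the difference between these lists was made. The 11 tested fatty acid genes have transcripts of 2931 to 10050 nt, and the 17 synthesis enzymes of 1194 to 4787 nt. With the length correction Acaca had a log2 fold change of −0.47 and did not pass (limma adjusted p = 0.185). The part of transcript length in this contrast was not tested.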

How the data were processed

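RNA from 6 libraries was isolated with Trizol and prepared with the TruSeq protocol, per the labels' protocols. Bowtie 1.0.0, RSEM 1.2.12 and build mm9 were used, per the submitters' processing notes; the sources used here name no annotation and no use of strand. Genes that overlap on opposite strands therefore share an uncertain value. The authors deposited a normalized signal per gene and library, which the table's name calls median normalized, and a table of changed genes with a fold (ratio) of knockdown over control. Taking the smallest step of a library as 1 read, 88.4 to 90.4% of its values up to 20 reads lay within 0.1 of a whole read, too few for a count test.

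The main test was limma 3.58.1, run in R 4.3.3 on log2(value + 1) for genes whose mean reached 10 (knockdown minus control, two-sided, trend and robust options) at a Benjamini-Hochberg adjusted p of 0.05 over all genes; the test was checked on simulated data. Fold changes on this scale understate low genes, and 3 against 3 libraries give no exact permutation p below 0.1. Transcript lengths were those of the longest principal transcript in GENCODE M21, a newer build used for lengths and overlaps alone. Where a gene had no transcript marked principal, the longest protein-coding transcript was taken. No label says that a shared replicate number marks a shared culture or day. The alternatives were other pseudocounts, filters and scalings, library weights, a length correction, a replicate block and leaving out each library. The members and lists, and the rule that prints every library's value for members that passed or whose groups did not overlap, were chosen with earlier results of these data known. Values of further members were added for their role in the pathway.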

Additional observations from a re-analysis of the deposited data

How the results depend on the processing

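The count of members that passed, 0 higher and 0 lower, was the same under other pseudocounts, filters, scalings, a fit without trend or robust options and a replicate block. It was 9 higher and 7 lower with library weights, whose estimation did not fully converge, 0 and 3 with the length correction, and ran from 0 to 7 higher and 0 to 6 lower when 1 library was left out, where knockdown replicate 2 alone gave calls. Over all genes, 387 were higher and 215 lower; equal totals gave 184 and 118, library weights 4214 and 4596, the length correction 810 and 521, and the replicate block 0 and 0 (1866 at an unadjusted p under 0.05). Leaving out 1 library gave 0 to 2855 higher and 0 to 3136 lower: 7 and 21 without knockdown replicate 1, 2855 and 3136 without replicate 2, 37 and 57 without replicate 3, and 0 and 0 without any one control (1475 to 1529 at an unadjusted p under 0.05). Same-numbered libraries had correlated deviations of 0.17, −0.051 and −0.051, so the numbers were not taken as pairs.

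Abca1, Npc1 and Scap were lower under every alternative and passed with library weights, the length correction and without knockdown replicate 2. Signs turned, as log2 fold changes, with equal totals in Acat2 (−0.019), Idi1 (−0.078), Sqle (−0.067), Lss (−0.0070), Cyp51 (−0.11) and Dhcr7 (−0.095). They turned with library weights in Acat2 (−0.20), Mvd (−0.28), Cyp51 (−0.052), Nsdhl (0.075), Ebp (−0.20), Sc5d (0.072), Insig2 (0.17) and Npc2 (−0.079), and with the length correction in Ebp (−0.0094), Sc5d (0.18) and, outside the members, Rabggtb (−0.024). With 1 library left out the ranges were −0.20 to 0.29 in Acat2, −0.23 to 0.60 in Mvd, −0.055 to 0.25 in Idi1, −0.068 to 0.50 in Lss, −0.028 to 0.078 in Cyp51, −0.38 to 0.091 in Nsdhl, −0.57 to 0.13 in Hsd17b7, −0.20 to 0.49 in Ebp, −0.16 to 0.11 in Sc5d, −0.072 to 0.25 in Dhcr7, −0.73 to 0.13 in Insig2, −0.15 to 0.85 in Npc2 and −0.052 to 0.48 in Fnta. Rnf2 no longer passed with the replicate block (limma adjusted p = 0.102) or without knockdown replicate 1 or any one control (0.0646 to 0.0852). Ch25h did not pass with equal totals, the replicate block or the length correction (0.112 to 0.162), nor Acaca under these, no filter or upper-quartile scaling (0.0502 to 0.193). Ring1 passed with equal totals (0.0441), the length correction (0.00872) and library weights (2.53e-08). The cause of these turns was not tested. Depth limits Abcg1 in every library but control replicate 1, and Abca1 in knockdown replicate 2.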

Other observations

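The isoprenoid branch, which leaves the pathway at farnesyl diphosphate to make dolichol, ubiquinone and the lipid anchors of proteins, was counted from a list of 13 genes. All 13 were tested, and 0 rose and 0 fell (limma adjusted p under 0.05), with a median log2 fold change of 0.24, which was 0.013 without knockdown replicate 2. Fnta and Nus1 had the highest means over the 6 libraries. Fnta, encoding a subunit of farnesyl and geranylgeranyl transferase, stood at 1285, 2394 and 1141 in the knockdowns and 1290.0, 1228 and 1250.2 in the controls, high in replicate 2 alone. Nus1, encoding a subunit of the dolichol-making prenyltransferase, stood at 1509.7, 1416 and 1545 in the knockdowns and 1297, 1195 and 1251 in the controls, above them in all 3 libraries (log2 fold change 0.26, SE 0.13, limma adjusted p = 0.331). Without knockdown replicate 2 Nus1 and Rabggtb, a subunit gene of the Rab prenyltransferase, passed as higher and 0 of the 13 as lower, beside 23.8% and 26.1% of all genes. Rabggtb was picked out once its values were known; it stood at 633, 676 and 647 in the knockdowns and 503, 509 and 507 in the controls (log2 fold change 0.36, SE 0.13, limma adjusted p = 0.197; without replicate 2 log2 fold change 0.34, SE 0.063, limma adjusted p = 0.000896).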
